A study of Mus musculus with 6 samples.

Results

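Mir672 is 1 of the 1155 miRNA rows counted in 6 small RNA libraries from mouse embryonic fibroblasts, connective tissue cells grown in culture from embryos. The row was chosen on measured values, namely its difference between cells with and without Fbxw7, so that difference is described here and not tested. The groups were 3 libraries from wild-type (WT) fibroblasts and 3 from Fbxw7 knockout fibroblasts (Fbxw7 KO), all from cells kept in DMEM with serum and non-essential amino acids. The sources used here name no embryo stage, strain or knockout allele. The labels do not tell whether replicates are separate embryos or cultures, so the spread behind errors and p-values here is that of these 6 libraries and may be technical. The Fbxw7 transcript itself was not analysed here, so the knockout could not be checked.

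A miRNA is cut from an RNA hairpin that folds back on itself. Either arm can be loaded into an Argonaute protein, and the bases near its 5′ end, the seed, pair with target transcripts and repress them. Many miRNAs lie in introns of protein-coding genes and can be made from the same transcript as their host. The host of Mir672, Nexmif (neurite extension and migration factor), is an X-linked gene best known from neurons, and loss of its human counterpart causes intellectual disability. FBXW7 is the part of an SCF ubiquitin ligase that recognises substrates such as Myc, Jun, cyclin E and Notch.

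The hairpin lies at chrX:104116175-104116274 of mm10, on the minus strand, inside intron 1 of Nexmif and in the same direction as its host. All 3 annotated Nexmif transcripts that span it (GENCODE M21) place it in their first intron, which covers 100951 bases in 2 of them and 111626 in the third. It lies 84358 bases beyond the end of exon 1. The hairpin and its arms are shown because a single count stands for both arms and because the seed sets the relatives described below. Both arms are in capitals in the hairpin, and in the mature sequences the capitals mark the seed, bases 2 to 8 counted from the 5′ end (RefSeq, GRCm38.p6):
Mir672 hairpin: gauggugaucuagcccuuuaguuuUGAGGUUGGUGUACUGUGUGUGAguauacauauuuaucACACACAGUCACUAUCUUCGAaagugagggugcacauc
mmu-miR-672-5p: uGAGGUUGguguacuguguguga
mmu-miR-672-3p: aCACACAGucacuaucuucga

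The 5p arm holds 23 bases and the 3p arm 21, with 15 bases between them. In the fold of lowest predicted energy (−45.0 kcal/mol, RNAfold), 19 bases of the 5p arm paired with the 3p arm. Neither arm was found in a transcript of another gene among 141767 GENCODE M21 transcripts, and 0 of the other matched hairpins of the table share a stretch of 20 bases with it. No other row of the table overlaps it. A genome sequence was not used here, so copies outside annotated transcripts were not searched. Strand was ignored in counting, and RNA of the Nexmif intron that covers the hairpin would be counted in the row too and cannot be told apart from the mature arms.

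Mir672 had few counts in WT and at least 822 in every Fbxw7 KO library. The libraries of WT replicates 1, 2 and 3 held 128, 143 and 53 counts of it. Those of Fbxw7 KO replicates 1, 2 and 3 held 914, 822 and 1379. The KO libraries were not the deeper ones: library totals ran from 3707576 to 5019700 counts in WT and from 2932439 to 3753353 in Fbxw7 KO.

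Mir672 was then set against the total of each library (CPM without further scaling, with exact Clopper-Pearson 95% intervals that cover counting error only). WT replicate 3 was lowest at 14.3 (10.71 to 18.7). WT replicate 1 followed at 25.5 (21.27 to 30.32) and WT replicate 2 at 31.3 (26.38 to 36.87). These 2 intervals overlap, so the order of WT replicates 1 and 2 is within counting error, whereas that of WT replicate 3 lies below both. Fbxw7 KO replicate 2 stood at 280.3 (261.5 to 300.1) and replicate 1 at 291.1 (272.5 to 310.6), again with overlapping intervals. Fbxw7 KO replicate 3 was highest at 367.4 (348.3 to 387.3), above the intervals of both other KO libraries. No WT library came near a KO library.

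**Figure D1:**
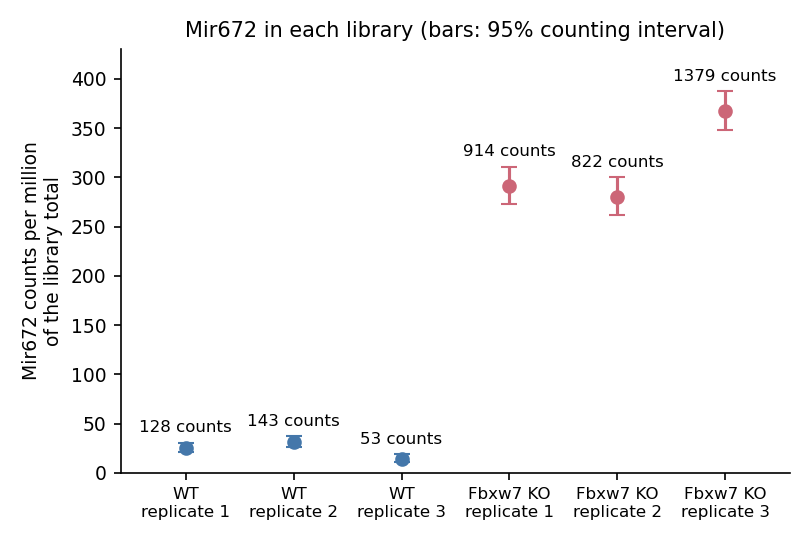
Mir672 CPM of each library's total, without further scaling (vertical axis, linear) for the 3 WT and 3 Fbxw7 KO libraries; points are single libraries, bars are exact 95% counting intervals and the raw counts are written above. The WT libraries lie between 14.3 and 31.3 and the KO libraries between 280.3 and 367.4.

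Scaled with TMM factors, which correct library totals for differences in composition, Mir672 had 25.68, 33.99 and 13.78 CPM in WT replicates 1 to 3 and 288.3, 279.2 and 353.2 CPM in Fbxw7 KO replicates 1 to 3. The mean was 24.5 ± 10.2 CPM over the WT libraries and 307 ± 40.4 CPM over the KO libraries (SD, n = 3). The lowest KO library was 8.215 times the highest WT library. The authors' deposited FPKM values are the same counts scaled by row length and TMM-adjusted totals. They were 262.3, 325.8 and 137.3 in WT replicates 1 to 3 and 2937, 2764 and 3589 in Fbxw7 KO replicates 1 to 3.

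The fitted log2 fold change of Mir672, Fbxw7 KO over WT, was 3.64 (SE 0.303), or 12.5-fold higher, with 10.1-fold to 15.4-fold at 1 SE to either side. Because this contrast is what the row was chosen by, and no library lies outside it, no p-value is given. Among the 283 rows with enough counts to be tested, 72 (25.4%) were called at an edgeR adjusted p under 0.05, 43 higher (15.2%) and 29 lower (10.2%) in Fbxw7 KO. With scaling factors from rows outside the Dlk1-Dio3 region, a large imprinted miRNA cluster, the split was 29 higher and 34 lower, and Mir672 had 3.51. The log2 fold change of Mir672 was the third highest of the 283, after those of Mir217 (5.82, SE 0.669) and Mir216a (5.09, SE 0.841). The counts of Mir217 are not shown here, so how well its size is set cannot be read. Mir216a held 2, 1 and 1 counts in WT replicates 1 to 3, so the size of its fold change is poorly set.

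**Figure D2:**
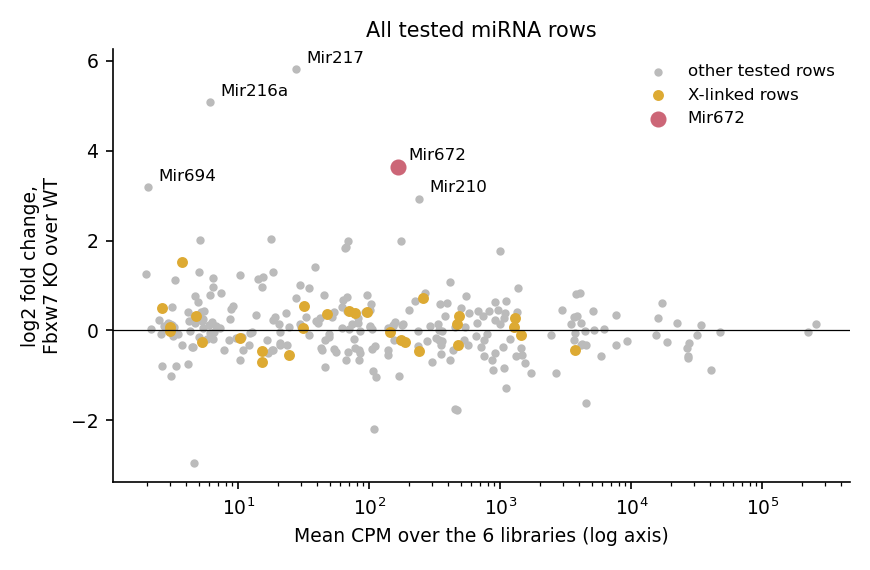
Each of the 283 tested rows by its mean CPM over the 6 libraries (horizontal, log axis) and its log2 fold change, Fbxw7 KO over WT (vertical). Mir672 (large point) stands at 3.64, and X-linked rows other than Mir672 lie between −0.69 and 1.53.

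The place of Mir672 in the abundance order of each library moved in step. It ranked 182nd, 175th and 207th among all rows in WT replicates 1 to 3, and 101st, 104th and 94th in Fbxw7 KO replicates 1 to 3. Even in Fbxw7 KO it was a minor miRNA, with 0.02803% to 0.03674% of all counts, against 0.00143% to 0.00313% in WT.

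Spread between libraries was larger than counting alone would give in both genotypes. In WT the SD was 41.5% of the mean CPM where the mean count corresponds to 9.62%, and in Fbxw7 KO it was 13.2% against 3.1%. The highest WT library was 2.467 times the lowest, and the highest KO library was 1.265 times the lowest. WT replicate 3 was the lowest of all libraries, and the log2 fold change was 3.35 without it (SE 0.203) and 3.96 without WT replicate 2 (SE 0.331).

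**Figure D3:**
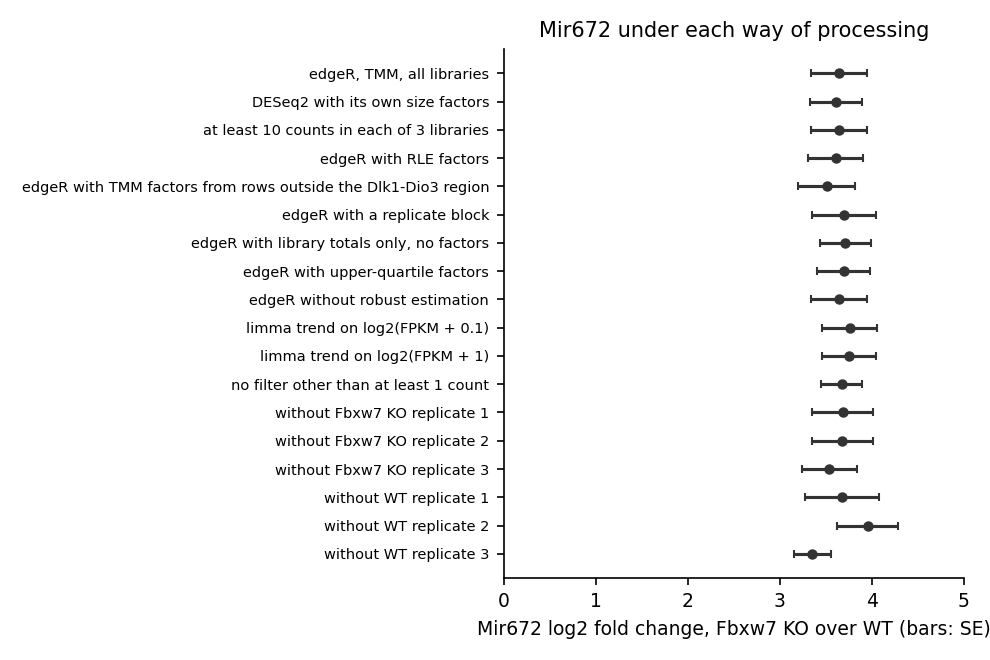
Log2 fold change of Mir672, Fbxw7 KO over WT (horizontal axis, bars are SE), under the fit used here, 11 other ways of processing and the 6 fits that each leave out 1 library. The values run from 3.35 to 3.96.

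The neighbourhood on chromosome X did not hold another row with a change of this size that could be measured. Within 2 Mb of Mir672 the table lists 5 other rows. Mir421, which lies 0.543 Mb away in an intron of Ftx, a long noncoding RNA gene of the X-inactivation centre, is the 1 row of these with enough counts to test. It had 36.12, 42.31 and 46.53 CPM in WT replicates 1 to 3 and 49.53, 49.25 and 61.22 CPM in Fbxw7 KO replicates 1 to 3. The KO libraries all lay above the WT libraries, by a narrow margin, and the row did not pass the test (log2 fold change 0.36, SE 0.184, edgeR adjusted p = 0.19). Its neighbours in Ftx, Mir374b and Mir374c, overlap each other on opposite strands and are listed at 0 in all libraries. Reads that fall on 2 rows are left out by the counting program's default, so a 0 there says nothing of their level. Mir384, 1.23 Mb away on the other side, had 0 counts in every library, and Mir325, 1.26 Mb away, had 1 count in all, in Fbxw7 KO replicate 1. Mir361, in an intron of Chm 8.96 Mb away and picked after its values were seen, had a mean of 443.3 ± 67.1 CPM in the WT libraries and 490.2 ± 28.0 in the KO libraries (SD, n = 3; log2 fold change 0.14, edgeR adjusted p = 0.504).

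Over the whole X chromosome there were 88 other rows, of which 34 had 0 counts in all libraries and 28 could be tested. Of these 28, 2 rose, 2 fell and 24 did not pass, with a median log2 fold change of 0.06 against 0.05 over all 282 tested rows other than Mir672. This is 7.14% higher and 7.14% lower, beside 15.2% and 10.2% of all tested rows. Their summed share was 1.041% to 1.12% of counts in WT and 0.9316% to 1.23% in Fbxw7 KO, so the groups overlapped.

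The 4 X-linked rows that passed lie, as Mir672 does, in introns of protein-coding genes in the direction of the host, and so do 17 of the 28 tested X-linked rows. The 4 are 23.5% of those 17, near the 25.4% called among all tested rows. Mir676, in Eda, the ectodysplasin gene, is 3.74 Mb from Mir672 and had 202.4, 225.8 and 153.6 CPM in WT replicates 1 to 3 and 320.5, 312.5 and 328.4 CPM in Fbxw7 KO replicates 1 to 3. Like Mir672 it was lowest in WT replicate 3, and its groups did not overlap (log2 fold change 0.72, SE 0.168, edgeR adjusted p = 0.0161). That p was 0.0522 without Fbxw7 KO replicate 2. Mir1298, in the serotonin receptor gene Htr2c 42.9 Mb away, had 7, 10 and 7 counts in WT and 17, 24 and 12 in Fbxw7 KO (log2 fold change 1.53, SE 0.432, edgeR adjusted p = 0.033). It passed the count filter only through the KO libraries. Mir224, in the GABA receptor gene Gabre, fell by 0.46 on the log2 scale (SE 0.145, edgeR adjusted p = 0.0466), and Mir188, in the chloride channel gene Clcn5, fell by 0.69 (SE 0.223, adjusted p = 0.0498). Of 17 alternatives, 6 ended the call of Mir1298 (adjusted p up to 0.137), 10 that of Mir224 (up to 0.229) and 14 that of Mir188 (up to 0.153). Leaving out any 1 library other than Fbxw7 KO replicate 3 ended all 3 of these calls, and leaving out Fbxw7 KO replicate 3 ended that of Mir224.

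**Figure D4:**
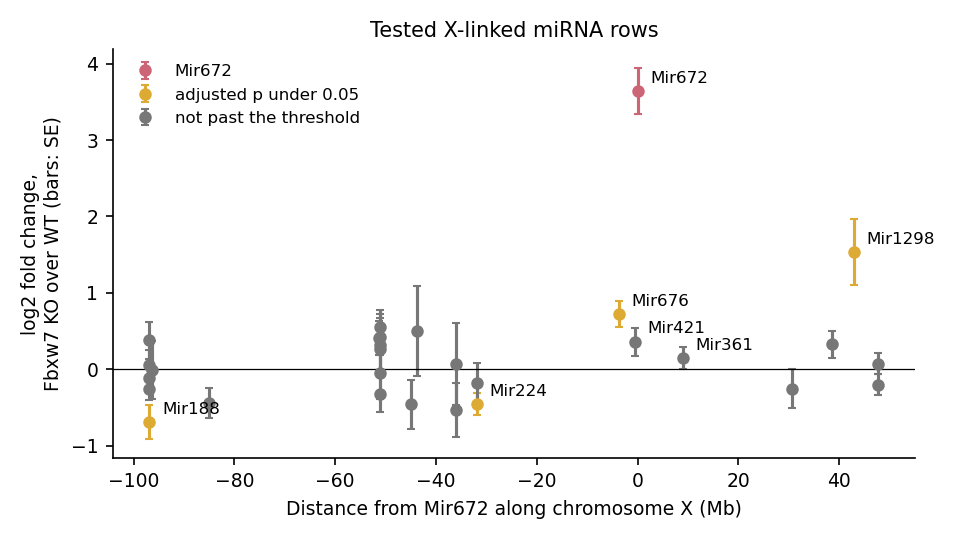
Log2 fold change, Fbxw7 KO over WT (vertical, bars are SE), of the 29 tested X-linked rows by distance from Mir672 in Mb (horizontal). Mir672 stands at 3.64, the 4 other rows past the threshold (yellow points) lie between −0.69 and 1.53, and the remaining 24 rows did not pass.

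Mir672 belongs to a large class of loci, the rows inside an intron of a protein-coding gene on the same strand. The table holds 504 others, of which 112 could be tested. Among these 14 rose, 7 fell and 91 did not pass, which is 18.8% called in either direction beside 25.4% of all tested rows. Their median log2 fold change was 0.10, and the values ran from −2.95 (Mir383) to 3.18 (Mir694), ends that are set by rows with few counts. In place of 21 called rows there were 12 without WT replicate 1, 9 without WT replicate 2, 13 without KO replicate 1 and 8 without KO replicate 2.

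The rises in this class with the lowest p were those of Mir582, Mir708, Mir694 and Mir106b, and the falls those of Mir615, Mir196a-2, Mir383 and Mir32. Mir694 and Mir383 passed the count filter only through the genotype where they are high, so their calls are given as description. Mir582, in the phosphodiesterase gene Pde4d, went from a WT mean of 28.6 ± 5.49 CPM to a KO mean of 101 ± 16.6 (SD, n = 3; log2 fold change 1.83, SE 0.21, edgeR adjusted p = 0.000666), with WT levels near those of Mir672. Mir708, in the teneurin gene Tenm4, went from 70.6 ± 18.1 to 279 ± 76.5 CPM (SD, n = 3), close to the KO level of Mir672. Mir106b, in the replication gene Mcm7, had a log2 fold change of 0.64 (edgeR adjusted p = 0.0091), with an adjusted p of 0.0522 without Fbxw7 KO replicate 2. Of the falls, Mir615 in Hoxc5 had −1.62, Mir196a-2 in Hoxc5 −0.94, Mir383 in Sgcz −2.95 and Mir32 in Tmem245 −0.65. Mir383 held 26, 23 and 52 counts in WT and 3, 4 and 3 in Fbxw7 KO, so the size of its fall is poorly set. The call of Mir32 ended in 4 of 17 alternatives (edgeR adjusted p up to 0.0864), each of which left out 1 library, namely replicate 1 or 2 of either genotype. Host transcripts, that of Nexmif included, were not analysed here, so whether a host changed with its miRNA was not tested.

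By sequence Mir672 has few relatives. Of 1605 mature sequences matched to rows of the table, 2 hold the seed of miR-672-5p, its own and that of miR-377-5p. One more, miR-329-5p, shares bases 2 to 7, and the seed of miR-672-3p occurs in no other. The 5p arm also begins with the same 6 bases as let-7a-5p, a member of the let-7 family that restrains growth-promoting genes in differentiated cells. Within its first 8 bases miR-672-5p differs from let-7a-5p by U7A alone, with the base of miR-672-5p first and positions counted from its 5′ end. From miR-377-5p it differs there by U1A, and from miR-329-5p by U1A and G8U. The relatives are printed with the shared stretch of the seed in capitals:
mmu-miR-377-5p: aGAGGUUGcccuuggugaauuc
mmu-miR-329-5p: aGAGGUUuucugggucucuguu
mmu-let-7a-5p: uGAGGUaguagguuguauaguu

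The relatives that could be measured were not called higher in Fbxw7 KO. Each row counts both arms of its hairpin, so the level of the arm that shares the seed was not measured alone. Mir377, which holds the same seed and lies in the Dlk1-Dio3 imprinted cluster of chromosome 12, is listed at 0 in all libraries, but it overlaps the row of the host transcript Mirg, so its level cannot be read from this table. Mir329, in the same cluster, had 1105, 1103 and 990.7 CPM in WT replicates 1 to 3 and 798.1, 837.3 and 621.4 CPM in Fbxw7 KO replicates 1 to 3. It was lower in every KO library (log2 fold change −0.50 with an SE of 0.142, edgeR adjusted p = 0.033), and the call ended in 5 of 17 alternatives (adjusted p up to 0.123), among them the fits that left out replicate 1 or 2 of either genotype.

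The let-7 comparison was picked for its sequence after the values were seen. Mirlet7a-1 averaged 50.7 ± 1.73 CPM over the WT and 47.9 ± 4.87 over the KO libraries (SD, n = 3; log2 fold change −0.08, SE 0.165, edgeR adjusted p = 0.75). Of the 9 tested rows whose matched sequence holds bases 2 to 8 of let-7a-5p, 0 were called by edgeR, DESeq2 or limma and 0 had an unadjusted edgeR p under 0.05, where edgeR called 25.4% of all tested rows. Their log2 fold changes ran from −0.21 to 0.24. Mirlet7a-2, for which only the other arm was matched, is outside this count and fell by 0.38 on the log2 scale (SE 0.116, edgeR adjusted p = 0.0419), a call that ended in 10 of 17 alternatives (up to 0.223), among them the fits that left out replicate 1 or 2 of either genotype. The rows with the let-7 seed together held 2.96% to 3.31% of counts in WT and 3.09% to 3.962% in Fbxw7 KO. Reads with several alignments are left out and each row counts both arms, so these values do not give the level of the let-7 seed itself.

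The row whose pattern over the 6 libraries was most like that of Mir672 was Mir210, best known for its induction under low oxygen. Likeness was measured as the root-mean-square difference of log2 CPM, each row centred on its own mean. This was 0.475 for Mir210, then 0.89 for Mir694, 0.952 for Mir708, 0.961 for Mir216a and 1.03 for Mir592, against a median of 1.88 over the other tested rows. All 5 rows are high in Fbxw7 KO, so the measure largely reads the difference that Mir672 was chosen for.

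Mir210 had 66.01, 61.8 and 38.21 CPM in WT replicates 1 to 3 and 347.3, 319.6 and 602.7 CPM in Fbxw7 KO replicates 1 to 3 (log2 fold change 2.93, SE 0.304, edgeR adjusted p = 0.000666). Both rows were lowest in WT replicate 3 and highest in Fbxw7 KO replicate 3. They did not keep a fixed proportion: Mir672 counts divided by Mir210 counts gave 0.389, 0.55 and 0.361 in WT replicates 1 to 3 and 0.83, 0.874 and 0.586 in Fbxw7 KO replicates 1 to 3.

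Mir708, Mir592 and Mir216a differed from Mir672 in the KO libraries. Of the KO libraries they were lowest in replicate 3, at 190.6, 70.44 and 2.818 CPM, where Mir672 was highest. Mir592, in the glutamate receptor gene Grm8, otherwise had 117 and 124 CPM in Fbxw7 KO replicates 1 and 2, and 36.72, 28.76 and 20.28 CPM in WT replicates 1 to 3. Mir694 held 1, 2 and 2 counts in WT and 12, 8 and 18 in Fbxw7 KO, too few for its pattern to be read closely. With a prior count of 0.5 in place of 2, Mir344b took the place of Mir216a among the 5, and the other 4 were the same.

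**Figure D5:**
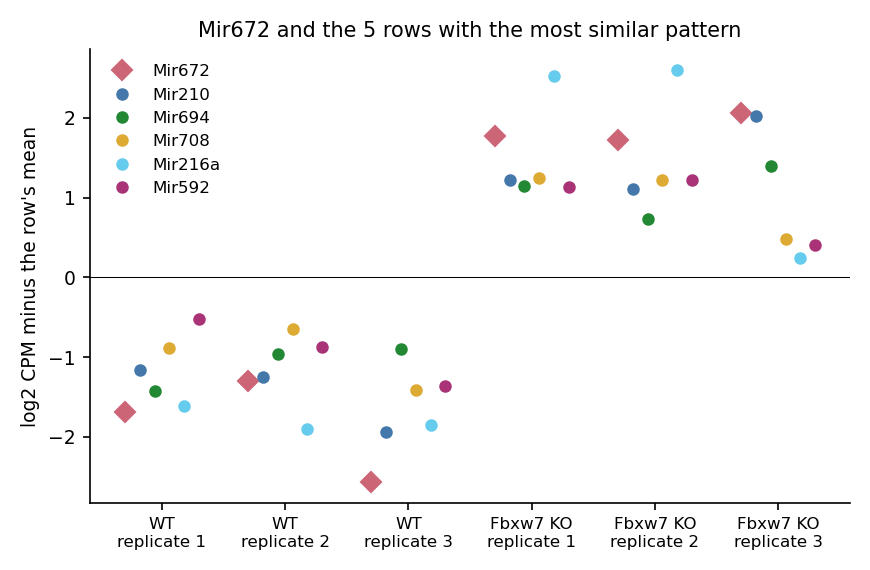
Log2 CPM minus the row's own mean (vertical) for Mir672 (diamonds) and the 5 rows with the most similar pattern, in each of the 6 libraries (horizontal). Mir672 is lowest in WT replicate 3 and highest in Fbxw7 KO replicate 3, as is Mir210, while Mir708, Mir216a and Mir592 are lower in Fbxw7 KO replicate 3 than in the other KO libraries.

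Markers of cell types were read beside Mir672, since its host is best known from neurons. In bulk RNA, fewer cells of a type and less RNA per cell cannot be told apart. Fibroblast and mesenchymal miRNAs, led by Mir21a and Mir143, held 53.75% to 54.89% of counts in WT and 55.31% to 58.48% in Fbxw7 KO, and of 10 tested members Mir31, Mir34c and Mir199b rose and Mir10a fell (log2 fold changes 1.77, 0.82, 0.65 and −0.89). That is 3 higher and 1 lower of 10, beside 15.2% higher and 10.2% lower among all tested rows. The calls of Mir34c and Mir199b ended without WT replicate 2 (edgeR adjusted p up to 0.0719 and 0.0736 over all alternatives), that of Mir34c also without WT replicate 1 and that of Mir199b also without Fbxw7 KO replicate 2.

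The neuronal list has 16 of 17 names in the table. It held 0.06274% to 0.07219% of counts in WT and 0.04633% to 0.06165% in Fbxw7 KO, lower in each KO library by a narrow margin. Of its 6 tested members 0 were called by edgeR (2 at an unadjusted p under 0.05), 0 by limma and 2, Mir132 and Mir212, by DESeq2, where edgeR called 25.4% of all tested rows. Mir132, the most abundant member (mean 413.8 CPM in WT, 286.2 in Fbxw7 KO), carried the largest part of the sum, which was not taken without it. It had a log2 fold change of −0.53 (edgeR adjusted p = 0.07, and under 0.05 in 5 of 17 alternatives). Mir128-1 was next, at means of 144.9 CPM in WT and 155.7 in Fbxw7 KO. Its log2 fold change of 0.10 (edgeR adjusted p = 0.722) became −0.03 with scaling factors from outside the Dlk1-Dio3 region. Mir124a-1, Mir124a-2, Mir9-1 and Mir219a-2 are listed at 0, and 3 of these overlap another row, which leaves their level unread. Reads with several alignments are left out as well, so members with several loci, such as Mir124a and Mir9, can be missed at each locus. The bone and cartilage list held 0.2884% to 0.3151% in WT and 0.1836% to 0.2237% in Fbxw7 KO. Of 3 tested members 1, Mir196a-2, was called lower, beside 10.2% of all tested rows. Mir196a-2 carried the largest part of that sum (mean 2265 CPM in WT, 1180 in Fbxw7 KO). The log2 fold changes of the 3 members ran from −0.94 to −0.12. Muscle miRNAs held 0.01412% to 0.02301% and 0.02182% to 0.0409%, epithelial ones 0.002112% to 0.002616% and 0.001678% to 0.006178%, with 0 of 2 and 0 of 1 tested members called by edgeR, DESeq2 or limma and 1 in each list at an unadjusted edgeR p under 0.05. Blood cell miRNAs held at most 0.0004383% in any library and had no member to test. Mir142 of the blood cell list is listed at 0 and overlaps another row. Of the 8 muscle rows 5 are listed at 0, and 2 of these overlap another row. The small muscle and blood cell shares therefore do not show that such cells were absent. The part of these cell types in the level of Mir672 was not tested.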

How the data were processed

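Small RNA from 3 WT and 3 Fbxw7 KO fibroblast libraries (Trizol and column extraction, Illumina TruSeq) was profiled. Per the file headers, the authors made the deposited counts with featureCounts 1.6.4, per miRNA gene name, ignoring strand. Reads with several alignments or over 2 rows are left out by its default, and both arms form 1 value. The deposited FPKM values equal those counts scaled by row length and TMM-adjusted totals (largest relative difference 8.6e-15), so they add no depth. Per the submitters' processing notes, mm10 was used, with deepTools, Cufflinks 2.2.1, SAMtools 1.5 and TopHat2 2.1.1 named without their roles. Trimming is not given in the sources used here.

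Counts of the whole table were fitted with edgeR 4.0.16 in R 4.3.3 (filterByExpr with minimum count 10 and minimum total 15, TMM, robust glmQLFit, glmQLFTest, genotype only). This left 283 of 1155 rows. P-values are 2-sided and Benjamini-Hochberg adjusted over these, with a threshold of 0.05. The fit was checked on simulated counts. Annotation came from GENCODE M21 (1132 rows at the same place) and mature sequences from RefSeq (974 rows matched), and folding used RNAfold 2.7.2. Libraries held 2932439 to 5019700 counts.

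Mir672 and all lists were chosen with earlier results of these data known. Named besides Mir672 were the rows within 2 Mb, called X-linked rows, seed relatives, the 5 rows of most similar pattern, the 4 lowest p in each direction among sense-intronic rows, and, of the fibroblast and neuronal lists, the 2 most abundant and any called member. Mir212, Mir217, Mir361, Mirlet7a-1, Mirlet7a-2 and Mir344b were picked after their values were seen. The alternatives were other scalings, filters, DESeq2 1.42.0, limma 3.58.1 on FPKM, a replicate block and leaving out each library. Deviations of same-numbered libraries had correlations of −0.057, 0.136 and 0.157, and those of differently numbered ones ran from −0.182 to 0.152. With 3 libraries per genotype these values do not settle whether the numbers are pairs, and the main fit did not take them as such.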

Additional observations from a re-analysis of the deposited data

How the results depend on the processing

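The log2 fold change of Mir672 kept its direction in all 17 alternatives. It ran from 3.51 to 3.76 over 11 settings and from 3.35 to 3.96 over the fits that leave out 1 library, and was 3.70 with a replicate block. The SD of its log2 CPM was 0.667 between WT and 0.184 between KO libraries (pooled 0.489). Every shift was smaller than the pooled SD, but that without WT replicate 2 exceeded the SE of the main fit (0.303). With TMM factors from rows outside the Dlk1-Dio3 region, 29 tested rows were higher and 34 lower in place of 43 and 29, and the median over the tested rows shifted by −0.126 (log2). Mir672 then had 3.51, Mir128-1 −0.0269, and 1 X-linked row was called higher in place of 2. The 2 X-linked rows called lower became 1 with DESeq2, at least 10 counts in each of 3 libraries, no robust estimation, limma on log2(FPKM + 1) or log2(FPKM + 0.1), and the replicate block, and 0 with library totals only, upper-quartile factors or no filter. Leaving out 1 library gave 34 to 78 called rows in all in place of 72 (without WT replicate 1 there were 42, without WT replicate 2 there were 35, and without Fbxw7 KO replicate 2 there were 34), 0 to 3 X-linked rows called higher, 0 to 2 called lower and 8 to 21 sense-intronic rows. The log2 fold change of Mir143 was −0.0262, but 0.0253 with library totals only, 0.0108 with upper-quartile factors and −0.0832 to 0.0367 over the fits without 1 library. That of Mir128-1 was 0.1034 and ran from −0.0289 without WT replicate 1 to 0.2337 without Fbxw7 KO replicate 3, with −0.0033 without Fbxw7 KO replicate 1. The cause was not tested in any of these. The replicate block ended the calls of Mir224, Mir188 and Mirlet7a-2 and no other named call, and Mir132 passed with it. Depth limits Mir694, Mir216a, Mir383 and Mir1298 more than Mir672, whose WT counts were 324 in all. Mir694, Mir216a, Mir383 and Mir1298 passed the count filter only through the genotype where they are high.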
